A study of Homo sapiens with 14 samples.

Results

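GATA6, HNF4A, FOXA1, FOXA2, PDX1, SOX9, ELF3 and A1CF, 8 genes of endodermal identity in pancreatic cancer, were read in AsPC-1 and Panc-1 cells, 2 established human pancreatic cancer cell lines. They were taken by symbol, and all 8 were found among the 23040 genes listed for each library. HNF4A, GATA6, FOXA1, FOXA2, PDX1, SOX9 and ELF3 encode transcription factors, and A1CF encodes an RNA-binding protein that is expressed in liver and gut and is grouped with them here as an endodermal gene. Serum-starved cells were given EGF (epidermal growth factor, 50 ng/ml) or ANG (angiogenin, also called hRNase5, a secreted ribonuclease, 1 µg/ml) for 1, 5 or 24 h, and each line also had an untreated mock library with no time in its label. RNA sequencing of total RNA gave 14 libraries, 7 per line and 1 per line and condition, so no condition was repeated within a line and nothing says that any library is a separate culture. P-values below therefore measure the spread between these libraries. EGF and ANG were each used at a single dose, and these doses differ.

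The pancreas arises from foregut endoderm under a network of transcription factors in which FOXA proteins open chromatin, GATA6 and PDX1 establish the pancreatic domain, SOX9 marks progenitors and ducts, and HNF4A drives genes of lipid transport and epithelial function. ELF3 is an epithelium-specific factor of the ETS family. In pancreatic ductal cancer, high GATA6 and HNF4A are known from tumours of the classical type, and their loss from tumours of the basal-like or squamous type. Both lines are adenocarcinoma lines; AsPC-1 was derived from ascites and Panc-1 from a primary tumour. Levels are RPKM (reads per kilobase of gene, scaled to the mapped reads), which divide by gene length and by depth. Between libraries a value also depends on the share of the reads that other genes take. RPKM is a share of the reads, so fewer cells with a transcript and less of it per cell cannot be told apart.

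A1CF, FOXA1, ELF3 and HNF4A stood at least 1.92 times lower at 5 h of either ligand than in mock in AsPC-1, and the 250 bases before their annotated starts are shown to give the sequence context of those genes. Of the 8 members, 5 had a promoter entry in RefSeq (GRCh38.p14; HNF4A had 2, for a distal and a proximal start, which gene-level values cannot tell apart). Capitals mark matches on either strand to 6 motifs, all chosen after the sequences and values were seen. The HNF4 motif was GGTCAAAG. The GATA motif was AGATAA. The FOXA motifs were TGTTTAC as well as the variant TATTTAC. The ETS motif was AGGAAG. The TATA box was searched as TATAAA. The A1CF window, on the minus strand of chr10:50885628-50885877, held GGTCAAAG, a GATA motif directly before it on the opposite strand, TATTTAC, and TATAAA on both strands in overlapping matches.
A1CF: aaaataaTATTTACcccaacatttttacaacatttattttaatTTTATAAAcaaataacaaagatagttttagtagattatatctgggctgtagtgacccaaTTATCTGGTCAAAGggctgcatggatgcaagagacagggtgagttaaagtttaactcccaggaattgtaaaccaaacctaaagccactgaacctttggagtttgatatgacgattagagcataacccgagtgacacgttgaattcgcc
The ELF3 window, on the plus strand of chr1:202010337-202010586, held TATAAA between 34 and 29 bases before the start.
ELF3: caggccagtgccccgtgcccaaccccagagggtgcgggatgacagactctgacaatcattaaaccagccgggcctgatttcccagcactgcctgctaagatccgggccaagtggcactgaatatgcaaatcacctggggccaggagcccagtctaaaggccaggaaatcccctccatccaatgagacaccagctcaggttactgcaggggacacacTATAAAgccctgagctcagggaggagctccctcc
The distal HNF4A window, on the plus strand of chr20:44355449-44355698, held AGATAA between 26 and 21 bases before the start, and the proximal one, at chr20:44400989-44401238, held none of the 6 motifs.
HNF4A distal: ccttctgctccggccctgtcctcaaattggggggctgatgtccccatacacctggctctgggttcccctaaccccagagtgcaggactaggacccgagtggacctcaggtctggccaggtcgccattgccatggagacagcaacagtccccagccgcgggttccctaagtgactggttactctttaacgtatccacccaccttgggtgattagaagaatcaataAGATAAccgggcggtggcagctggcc
HNF4A proximal: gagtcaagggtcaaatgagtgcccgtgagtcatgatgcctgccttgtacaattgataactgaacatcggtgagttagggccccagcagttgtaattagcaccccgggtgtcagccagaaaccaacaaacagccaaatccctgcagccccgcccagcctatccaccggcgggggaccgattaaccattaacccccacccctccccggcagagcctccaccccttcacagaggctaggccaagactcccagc
The FOXA1 window, on the minus strand of chr14:37595250-37595499, held none of them either.
FOXA1: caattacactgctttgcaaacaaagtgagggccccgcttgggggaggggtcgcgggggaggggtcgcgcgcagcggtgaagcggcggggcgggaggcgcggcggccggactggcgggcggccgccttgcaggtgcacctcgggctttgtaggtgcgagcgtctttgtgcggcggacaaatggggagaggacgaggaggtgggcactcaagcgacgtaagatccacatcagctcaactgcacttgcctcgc
Among 35116 RefSeq promoter windows of the same length, GGTCAAAG was present in 0.678%, TATTTAC in 2.39%, TGTTTAC in 2.98%, AGATAA in 9.17%, TATAAA in 10.7% and AGGAAG in 28.7%. The GATA6 window, not printed, held none of the 6. These are matches of letters in a short window, and binding was not measured.

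Depth, estimated from the step that a single read makes in genes spanning at most 150 bp, was 18.7 to 23.7 M reads in AsPC-1 and 11.1 to 16.7 M reads in Panc-1. A single read in 2 kb of transcript was then worth 0.0211 to 0.0268 RPKM in AsPC-1 and 0.0299 to 0.0451 RPKM in Panc-1. Genes spanning under 400 bp took 5.30 to 17.2% of the reads in AsPC-1 libraries and 5.11 to 16.5% in Panc-1 libraries. KRT8, KRT18 and KRT19, keratins of simple epithelium, were above 250 RPKM in every library of both lines. KRT7, another keratin of the same marker list, was lower, at 4.55 to 15.7 RPKM in AsPC-1 and 2.82 to 4.16 RPKM in Panc-1. CDH1, also on that list, was at 21.3 to 89.3 RPKM in AsPC-1 and 5.86 to 13.45 RPKM in Panc-1. EPCAM, an epithelial adhesion molecule, was listed at 149 to 230 RPKM in AsPC-1 and 4.88 to 5.58 RPKM in Panc-1. Of 19 markers of leukocytes, endothelium, fibroblasts, red cells, acini and islets, 3 reached 1 RPKM in AsPC-1 (CD68, LUM and CD79A) and 1 in Panc-1 (CD68), and the defining markers PTPRC, PECAM1, INS and GCG did not. Their summed level was 81.1 to 123 RPKM in AsPC-1 and 29.4 to 48.3 RPKM in Panc-1, most of it CD68, a lysosomal gene, and in AsPC-1 also LUM at 26.5 to 46.3 RPKM.

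The lines carried different sets of these factors. HNF4A, A1CF, GATA6, FOXA1 and ELF3 were higher in AsPC-1, FOXA2 and SOX9 were higher in Panc-1, and PDX1 was low in both. Of the 8 members, 5 were called higher and 2 lower in AsPC-1 than in Panc-1 (limma on log2(RPKM + 1), lines compared within the 7 conditions, adjusted p under 0.05 over 13427 genes). In the same comparison 68.8% of all genes tested were called, 29.3% higher and 39.6% lower, so being called is common between these lines. The members were also chosen with earlier results of these data known. The 7 libraries of the lines did not overlap for 6 members, beside 45.0% of all genes tested. HNF4A and A1CF were under 1 RPKM in every Panc-1 library, and FOXA2 was in every AsPC-1 library. Tested genes had to reach 1 RPKM in 2 or more libraries, so these members entered through the other line alone. That favours the direction found, and their calls and lack of overlap carry this limit. In AsPC-1 the median levels ran from ELF3 (60.1 RPKM) through HNF4A (28.2), SOX9 (12.1), GATA6 (9.88), FOXA1 (3.73), A1CF (2.38) and PDX1 (1.64) to FOXA2 (0.210). In Panc-1 the order was SOX9 (28.5 RPKM), FOXA2 (12.98), ELF3 (12.2), PDX1 (1.33), GATA6 (0.850), FOXA1 (0.490), HNF4A (0.450) and A1CF (0.050). Neighbours in these orders overlapped in their ranges over the 7 libraries, except HNF4A with SOX9 and PDX1 with FOXA2 in AsPC-1, and ELF3 with PDX1 and HNF4A with A1CF in Panc-1.

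**Figure D1:**
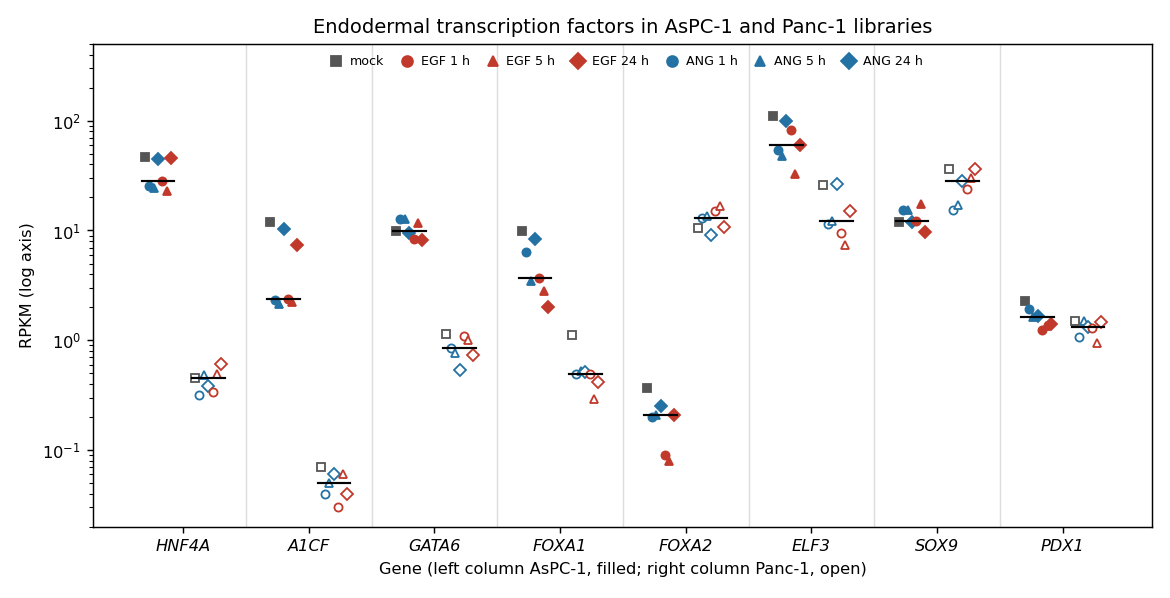
RPKM on a log axis for the 8 members in the 7 AsPC-1 libraries (filled, left) and the 7 Panc-1 libraries (open, right) of each gene; colour gives the treatment, shape the time, and the bar the median. The columns of the lines do not touch for HNF4A, A1CF, GATA6, FOXA1, FOXA2 and ELF3, and they overlap for SOX9 and PDX1.

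HNF4A (hg19, chromosome 20, 42984441 to 43060030, plus strand), the nuclear receptor of liver, gut and islet gene programmes, was listed at 22.8 to 46.8 RPKM in AsPC-1 (median 28.2) and at 0.320 to 0.610 RPKM in Panc-1 (median 0.450). Every AsPC-1 library was above every Panc-1 library, and the mean was 77.4 times as high. The log2 fold change on RPKM + 1 was 4.54 ± 0.15 (SE; limma adjusted p = 2.84e-08). A1CF (chromosome 10, 52559169 to 52645435, minus strand), which guides the deaminase APOBEC1 in the editing of apolipoprotein B mRNA, was at 2.16 to 11.99 RPKM in AsPC-1 (median 2.38) and at 0.030 to 0.070 RPKM in Panc-1 (median 0.050). Panc-1 values of A1CF are close to that of a single read in 2 kb, and the difference was 2.37 ± 0.30 (limma adjusted p = 1.30e-04).

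GATA6 (chromosome 18, 19749416 to 19782227, plus strand), the zinc finger factor whose amplification and expression are known from classical pancreatic tumours, was at 8.20 to 12.6 RPKM in AsPC-1 (median 9.88) and 0.540 to 1.13 RPKM in Panc-1 (median 0.850). The lines did not overlap, with means 11.9 times apart and a log2 difference of 2.60 ± 0.11 (SE; limma adjusted p = 1.45e-07). ELF3 (chromosome 1, 201979690 to 201986315, plus strand) was at 32.8 to 110 RPKM in AsPC-1 (median 60.1) and 7.37 to 26.7 RPKM in Panc-1 (median 12.2). The lowest AsPC-1 library of ELF3, EGF at 5 h, was above the highest Panc-1 library, ANG at 24 h, and the difference was 2.12 ± 0.14 (limma adjusted p = 1.68e-06).

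The FOXA paralogs, forkhead pioneer factors that act in part redundantly in endoderm, were divided between the lines. FOXA1 (chromosome 14, 38059191 to 38064489, minus strand) was at 2.01 to 9.86 RPKM in AsPC-1 (median 3.73) and 0.290 to 1.11 RPKM in Panc-1 (median 0.490), a log2 difference of 1.88 ± 0.19 (SE; limma adjusted p = 2.91e-05). FOXA2 (chromosome 20, 22561642 to 22566101, minus strand) was at 0.080 to 0.370 RPKM in AsPC-1 (median 0.210) and 9.06 to 16.6 RPKM in Panc-1 (median 12.98). Its mean was 62.8 times as high in Panc-1, and the log2 difference of AsPC-1 from Panc-1 was -3.49 ± 0.14 (limma adjusted p = 7.65e-08). FOXA1 made up 90.5 to 97.6% of the summed RPKM of the pair in AsPC-1 libraries and 1.72 to 9.48% in Panc-1 libraries. The sum itself was 2.22 to 10.2 RPKM in AsPC-1 and 9.57 to 16.9 RPKM in Panc-1, overlapping between the lines. The gene nearest to FOXA2 in the files, the non-coding NCRNA00261, 2362 bp away on the same strand, was at 0 to 0.020 RPKM in AsPC-1 and 1.18 to 2.40 RPKM in Panc-1. MIPOL1, the gene nearest to FOXA1, 38727 bp away on the opposite strand, went the other way from FOXA1. It was at 0.32 to 0.88 RPKM in AsPC-1 and 1.79 to 2.64 RPKM in Panc-1.

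SOX9 (chromosome 17, 70117161 to 70122560, plus strand), the ductal and progenitor factor, was at 9.67 to 17.4 RPKM in AsPC-1 (median 12.1) and 15.5 to 36.6 RPKM in Panc-1 (median 28.5). It was higher in Panc-1 in 6 of 7 conditions, the exception being ANG at 1 h, where AsPC-1 had 15.5 RPKM and Panc-1 had 15.5 RPKM. The log2 difference of AsPC-1 from Panc-1 was -0.91 ± 0.22 (SE; limma adjusted p = 0.00621). PDX1 (chromosome 13, 28494168 to 28500451, plus strand), the homeodomain factor of early pancreas and beta cells, was at 1.25 to 2.26 RPKM in AsPC-1 (median 1.64) and 0.940 to 1.51 RPKM in Panc-1 (median 1.33). The lines overlapped, AsPC-1 was higher in 5 of 7 conditions, and the difference of 0.19 ± 0.09 did not pass (limma adjusted p = 0.0819), though it did with libraries centred on their medians (0.30, adjusted p = 0.0155).

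Other factors of foregut, pancreas and gut were read from a list of 42 genes, of which 23 reached the level tested. Of these 16 were called higher and 5 lower in AsPC-1, beside 29.3% and 39.6% of all genes tested. The list's median difference was 0.90, beside -0.13 over all genes tested. Among those with large differences in favour of AsPC-1 were EHF, an ETS factor of epithelium (median 97.7 RPKM in AsPC-1 and 1.31 in Panc-1), NR5A2, a nuclear receptor of exocrine pancreas (17.0 and 1.04 RPKM), MECOM (9.37 and 0.10 RPKM) and ISL1 (7.59 and 0.200 RPKM). In favour of Panc-1 stood GATA5, a relative of GATA6, with a median of 0.020 RPKM in AsPC-1 and 11.02 RPKM in Panc-1, and with smaller differences GRHL1, MAFA, ONECUT3 and GATA4. GATA4 was at a median of 3.50 RPKM in AsPC-1 and 6.02 RPKM in Panc-1. Of these GATA factors GATA6 was thus higher in AsPC-1, GATA5 was near 0 there, and GATA4 was above 1 RPKM in both lines and higher in Panc-1. MECOM and ISL1 were under 1 RPKM in every Panc-1 library, and GATA5, GRHL1 and MAFA were in every AsPC-1 library. These genes passed the filter of 1 RPKM in 2 or more libraries through the other line alone, which favours the direction found. The list was chosen with earlier results of these data known, so its counts are no independent support.

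Genes of endodermal epithelium known as targets or companions of the members were another list of 42, of which 20 were tested. There 18 were called higher in AsPC-1 and 0 lower, beside 29.3% and 39.6% of all genes tested, with a list median of 3.18. Genes near 0 in Panc-1, such as APOBEC1 (at most 0.090 RPKM there), passed the filter through AsPC-1 alone. For such genes the filter favours a higher value in AsPC-1. This list, too, was chosen with earlier results of these data known, so its counts are no independent support. CDH17, an intestinal cadherin, had a median of 573 RPKM in AsPC-1 and 6.71 RPKM in Panc-1. TSPAN8, CEACAM6, LGALS4 and LYZ followed, at medians of 326, 669, 360 and 107 RPKM in AsPC-1 against 4.44, 9.44, 4.35 and 2.44 RPKM in Panc-1. Of 15 tested mesenchymal and squamous factors, 5 were called higher and 4 lower in AsPC-1 (list median 0.066). With 29.3% of all genes tested called higher and 39.6% lower, these counts say little of the factors as a group. SNAI2, a repressor of epithelial genes, was higher in AsPC-1 (median 55.4 RPKM, against 0.570 in Panc-1), while SNAI1, its relative, was lower there (0.360 RPKM, against 6.14 in Panc-1). SNAI2 was at most 0.81 RPKM in Panc-1 and SNAI1 at most 0.41 RPKM in AsPC-1. Each thus passed the filter through the other line alone, which favours the direction found.

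To follow the members over time, each was read in mock and at 1, 5 and 24 h. HNF4A in AsPC-1 stood at 46.8 RPKM in mock, 28.2, 22.8 and 45.4 RPKM at 1, 5 and 24 h of EGF, and 25.5, 24.4 and 44.5 RPKM at 1, 5 and 24 h of ANG. A1CF in AsPC-1 stood at 11.99 RPKM in mock, 2.38, 2.21 and 7.37 RPKM along EGF, and 2.34, 2.16 and 10.3 RPKM along ANG. In both genes the 4 libraries of 1 h and 5 h lay close together and below mock and both 24 h libraries. In Panc-1 the same genes stayed under 1 RPKM throughout, where few reads stand behind a value.

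**Figure D2:**
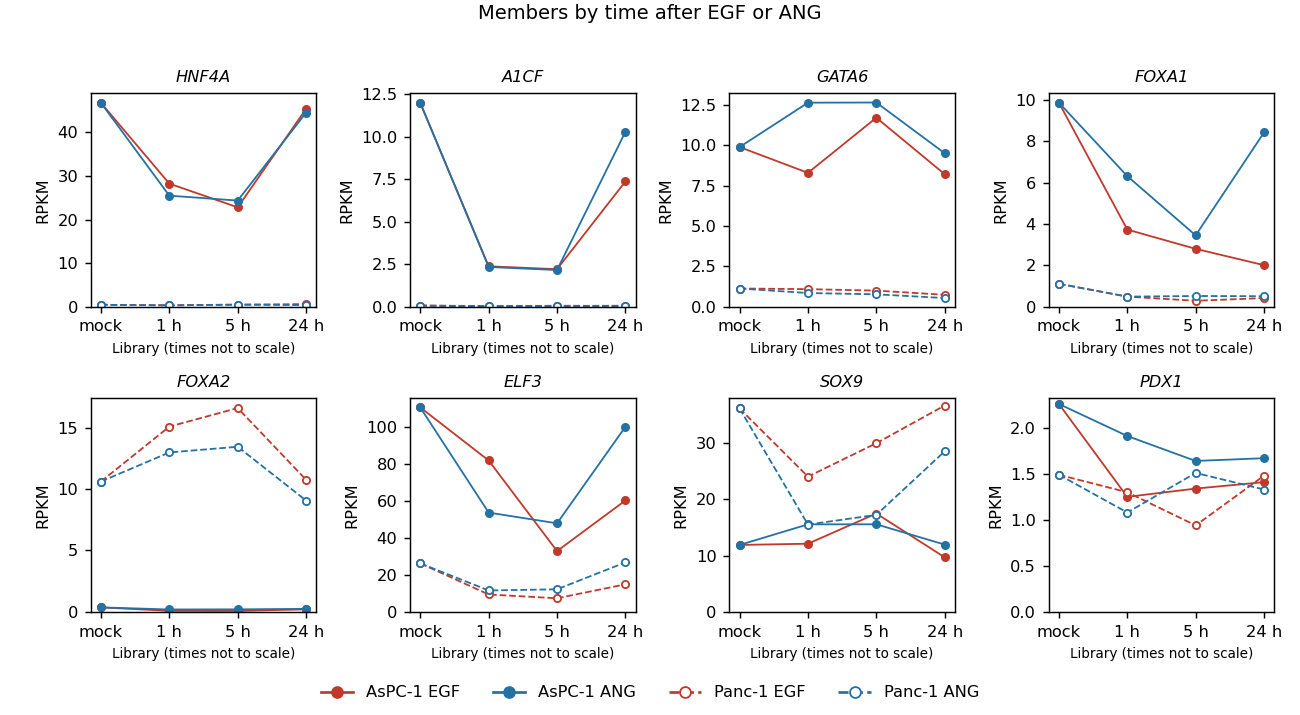
RPKM (linear axis from 0) of the 8 members in mock and at 1, 5 and 24 h of EGF (red) or ANG (blue) in AsPC-1 (solid, filled) and Panc-1 (dashed, open); each point is 1 library, both courses of a line share its mock library, and times are not to scale. HNF4A and A1CF dip at 1 h and 5 h in AsPC-1, ELF3 dips in both lines, and FOXA1 at 24 h in AsPC-1 is 2.01 RPKM after EGF and 8.42 RPKM after ANG.

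Since the time of the mock libraries is not given, the times were tested among the 12 treated libraries, 24 h against the mean of 1 h and 5 h within 4 courses of line and ligand. ELF3 was the only member called, and it was higher at 24 h (0.76 ± 0.22, SE; limma adjusted p = 0.0421), while 10.8% of all genes were called higher and 8.24% lower. ELF3 was at 60.1 and 99.9 RPKM at 24 h in AsPC-1, against 32.8 to 81.7 RPKM at 1 h and 5 h, so the times overlapped there. In Panc-1 it was at 14.9 and 26.7 RPKM at 24 h, against 7.37 to 12.2 RPKM at 1 h and 5 h, without overlap. The ELF3 call was lost with centred libraries (0.70, adjusted p = 0.0518) and with no filter on low values (0.76, adjusted p = 0.0728). Leaving out a library also ended it in 10 of 12 cases, the exceptions being AsPC-1 EGF at 1 h and AsPC-1 EGF at 24 h.

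The difference between the lines in the change over time passed for 4 of the 8 members, 3 more positive and 1 more negative in AsPC-1 than in Panc-1 (limma, interaction of time and line), beside 26.4% and 19.1% of all genes tested. For A1CF and HNF4A in Panc-1, and for FOXA2 in AsPC-1, all values lay under 1 RPKM, where log2(RPKM + 1) can hardly move. For these 3 genes the test therefore restates the change in the line with the higher level and does not show that the other line did not change. SOX9 was well above 1 RPKM in both lines. A1CF was at 7.37 and 10.3 RPKM at 24 h in AsPC-1 and at 2.16 to 2.38 RPKM at 1 h and 5 h, and in Panc-1 at 0.040 and 0.060 RPKM against 0.030 to 0.060 RPKM. The difference between the lines was 1.56 ± 0.15 (SE; limma adjusted p = 5.37e-05). HNF4A was at 44.5 and 45.4 RPKM at 24 h in AsPC-1, 1.78 times the mean at 1 h and 5 h, and the difference between the lines was 0.73 ± 0.16 (limma adjusted p = 0.00420). With a pseudocount of 0.1 in place of 1, which gives the low Panc-1 values more weight, the HNF4A difference did not pass (0.62, adjusted p = 0.0936).

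FOXA2 and SOX9 were the others. FOXA2 in Panc-1 was at 9.06 and 10.7 RPKM at 24 h, against 12.98 to 16.6 RPKM at 1 h and 5 h and 10.6 RPKM in mock. In AsPC-1 it was at 0.210 and 0.250 RPKM at 24 h and 0.080 to 0.210 RPKM at 1 h and 5 h, and the difference between the lines was 0.61 ± 0.12 (SE; limma adjusted p = 0.00245). SOX9 was at 9.67 and 11.9 RPKM at 24 h in AsPC-1, against 12.1 to 17.4 RPKM at 1 h and 5 h, the 24 h libraries being the lower ones. In Panc-1 SOX9 was at 28.5 and 36.6 RPKM at 24 h, against 15.5 to 29.9 RPKM at 1 h and 5 h, higher on average, with 1 early library (EGF at 5 h) above the ANG library of 24 h. The difference between the lines was -1.05 ± 0.21 (limma adjusted p = 0.00282).

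Within AsPC-1 alone, a fit added after seeing the data, A1CF (1.57, limma adjusted p = 0.00346) and HNF4A (0.81, adjusted p = 0.00559) were called higher at 24 h, where 40.0% of all genes were called and 24.8% were higher. Within Panc-1 alone ELF3 (0.94, limma adjusted p = 0.00351) and SOX9 (0.60, adjusted p = 0.0124) were called higher at 24 h, beside 19.2% of all genes. FOXA2 (-0.51, adjusted p = 0.00418) and GATA6 (-0.23, adjusted p = 0.0414) were called lower there, beside 20.3% of all genes, of 39.5% called in all. These fits rest on 6 libraries of a line each. Both 24 h libraries lay above all 4 of 1 h and 5 h for HNF4A and A1CF in AsPC-1 (32.2% of all genes) and for ELF3 in Panc-1 (27.3%), and below them for SOX9 in AsPC-1 (22.4%) and for GATA6 and FOXA2 in Panc-1 (28.0%).

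Among the editing partners of A1CF, APOBEC1 and RBM47 stood below mock at 1 h and 5 h in AsPC-1, while SYNCRIP was at 22.8 to 28.5 RPKM in those 4 libraries, against 23.0 RPKM in mock, and above it in 3 of them. Of the 20 tested target genes 0 were called against mock over both lines at any time of either ligand (limma), and in AsPC-1 10.9 to 14.4% of all genes were at least 2-fold below mock at 1 h and 5 h. The contrast with mock averages the lines, so it can miss a change in AsPC-1 of genes near 0 in Panc-1, such as APOBEC1. APOBEC1, the deaminase that A1CF guides, was at 15.02 RPKM in mock, 1.44, 0.790 and 1.91 RPKM at 1, 5 and 24 h of EGF, and 1.79, 1.3 and 13.98 RPKM at 1, 5 and 24 h of ANG. RBM47, another RNA-binding cofactor of APOBEC1, was at 31.8 RPKM in mock, 9.86, 6.61 and 23.4 RPKM along EGF, and 9.40, 9.64 and 30.3 RPKM along ANG. In Panc-1 APOBEC1 was at 0 to 0.090 RPKM and RBM47 at 0.580 to 1.00 RPKM, so the difference between the lines in the change over time (APOBEC1 1.48 ± 0.51, SE, limma adjusted p = 0.0397; RBM47 1.39 ± 0.20, adjusted p = 5.43e-04) rests on AsPC-1 and says little of Panc-1. SYNCRIP, an abundant RNA-binding protein that also joins the editing complex, was lower at 24 h over both lines (-0.35 ± 0.08, limma adjusted p = 0.0160), at 19.0 to 21.7 RPKM against 22.8 to 28.5 RPKM.

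Relatives and companions of HNF4A were also read from the same lists. HNF4G, its paralog, was at 14.3 RPKM in AsPC-1 mock, 4.70, 2.76 and 7.99 RPKM at 1, 5 and 24 h of EGF, and 4.83, 4.87 and 13.8 RPKM at 1, 5 and 24 h of ANG. NR0B2 (SHP), a corepressor of nuclear receptors, was at 18.6 RPKM in AsPC-1 mock, 0.670, 0.340 and 2.66 RPKM along EGF, and 1.5, 1.46 and 17.8 RPKM along ANG. In Panc-1 HNF4G was at 1.00 to 1.64 RPKM, and its difference between the lines in the change over time was 1.06 ± 0.25 (SE; limma adjusted p = 0.00728). The same difference passed for NR0B2 (1.80, adjusted p = 0.00579), PROX1 (1.03, adjusted p = 0.00553) and BHLHA15 (-1.03, adjusted p = 0.0148) in limma. These were at most 0.450, 0.170 and 0.130 RPKM in Panc-1, so their values, too, rest on AsPC-1, where NR0B2 and PROX1 were higher and BHLHA15 was lower at 24 h than at 1 h and 5 h. Over the whole list of 23 other factors 5 were called with a more positive and 5 with a more negative difference in AsPC-1. Over the 20 target genes these counts were 6 and 5. Of all genes tested 26.4% and 19.1% were so called, so both lists lay near the share over all genes. LYZ, lysozyme, led the target genes (1.74 ± 0.34, limma adjusted p = 0.00249). In AsPC-1 the epithelial marker CDH1 moved opposite to A1CF, at 21.3 and 21.9 RPKM at 24 h, against 66.6 to 89.3 RPKM at 1 h and 5 h.

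**Figure D3:**
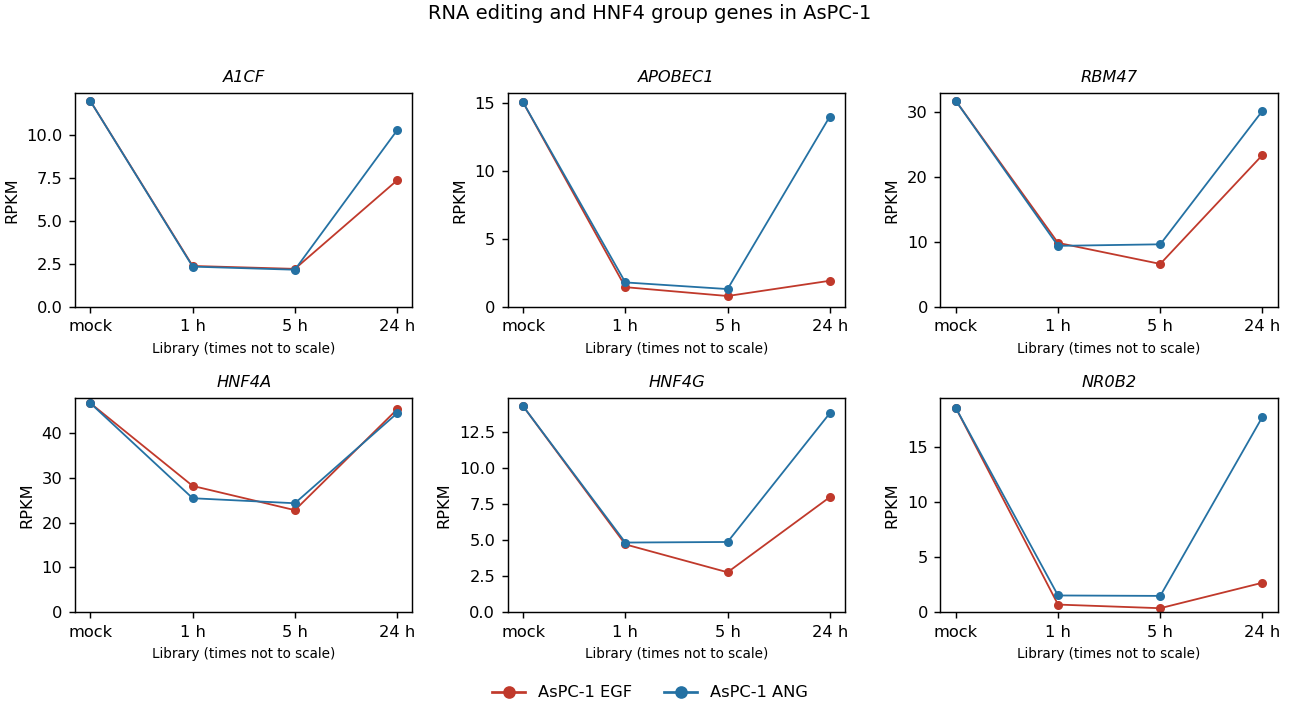
RPKM (linear axis from 0) in AsPC-1 of A1CF and its partners APOBEC1 and RBM47 (top) and of HNF4A, HNF4G and NR0B2 (bottom) in mock and at 1, 5 and 24 h of EGF (red) or ANG (blue); each point is 1 library and both courses share the mock library. All 6 genes are lower at 1 h and 5 h than in mock, and at 24 h APOBEC1 and NR0B2 are at 1.91 and 2.66 RPKM after EGF and at 13.98 and 17.8 RPKM after ANG.

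Compared with mock over both lines, 1 of the 8 members passed at any time. ELF3 was at 32.8 RPKM after 5 h of EGF in AsPC-1, against 110 RPKM in mock, and at 7.37 RPKM after 5 h of EGF in Panc-1, against 26.2 RPKM in mock. It fell by 1.71 ± 0.26 on the log2 scale (SE; lower in 2 of 2 lines, limma adjusted p = 0.0203), in a comparison that called 4.22% of all genes, 0.596% higher and 3.63% lower, and had a median of -0.156 over all genes tested. The call was lost with centred libraries (-1.50, adjusted p = 0.0526) and without any 1 of the 4 libraries compared (AsPC-1 mock, AsPC-1 EGF at 5 h, Panc-1 mock or Panc-1 EGF at 5 h, adjusted p 0.0829 to 0.174). Genes spanning under 400 bp took 5.30% and 11.2% of the reads in the EGF 5 h libraries of AsPC-1 and Panc-1 and 6.03% and 6.22% in their mock libraries, and the part of this share in the result was not tested.

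At the other times ELF3 did not pass, with differences from mock of -0.91 ± 0.26 (SE) at 1 h of EGF and -0.82 ± 0.26 at 24 h of EGF (limma adjusted p = 0.132 and 0.680). The value at 1 h of EGF was -0.40 without Panc-1 EGF at 1 h and -1.41 without AsPC-1 EGF at 1 h. For ANG its difference was -1.07 ± 0.26 at 1 h and -1.11 ± 0.26 at 5 h (limma adjusted p = 0.123 and 0.0897), and -0.057 at 24 h (adjusted p = 1), where Panc-1 had 26.7 RPKM with ANG, against 26.2 RPKM in mock. FOXA1 was below mock in both lines at each time of EGF and of ANG, without passing. Its differences were -0.85, -1.11 and -1.21 at 1, 5 and 24 h of EGF (SE 0.35; limma adjusted p = 0.268, 0.115 and 0.680) and -0.54, -0.88 and -0.34 at 1, 5 and 24 h of ANG (SE 0.35; limma adjusted p = 0.492, 0.246 and 1). Without AsPC-1 EGF at 24 h the value at 24 h of EGF was -0.75. For either ligand at 24 h, 0 genes passed in limma, with 961 and 202 of the 13427 at an unadjusted p under 0.05. The share of genes called was 0.663% at 1 h of EGF (0.209% higher and 0.454% lower), and with ANG it was 0.0819% at 1 h and 0.112% at 5 h.

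Single libraries show where the changes were large, with no test. In AsPC-1 the members at least 2-fold below mock on RPKM + 1 were FOXA1 and A1CF at 1 h of EGF, HNF4A, FOXA1, ELF3 and A1CF at 5 h, and FOXA1 at 24 h, when 12%, 14.4% and 2.76% of all genes were. With ANG they were ELF3 and A1CF at 1 h, and FOXA1, ELF3 and A1CF at 5 h, beside 10.9% and 12.1% of all genes. After 24 h of ANG, 0 members and 0.0447% of all genes were that far below mock in AsPC-1. In Panc-1 ELF3 was the member below this limit at 1 h and 5 h of EGF, beside 2.11% and 3.38% of all genes, and SOX9 and ELF3 were at 1 h and 5 h of ANG, beside 1.92% and 2.41%. In none of the 12 treated libraries was a member at least 2-fold above mock, where 1.42 to 5.27% of all genes were in AsPC-1 and 1.99 to 4.10% in Panc-1, shares at which 0 of 8 is no result about the members. GATA6 kept within 1.3 times of its mock level in all 6 treated AsPC-1 libraries, at 8.20 to 12.6 RPKM against 9.88 RPKM. In Panc-1 it was below mock in every treated library, at 0.540 to 1.09 RPKM against 1.13 RPKM. The mock level was 2.09 times that at 24 h of ANG there, a change that RPKM + 1 understates at such low values.

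**Figure D4:**
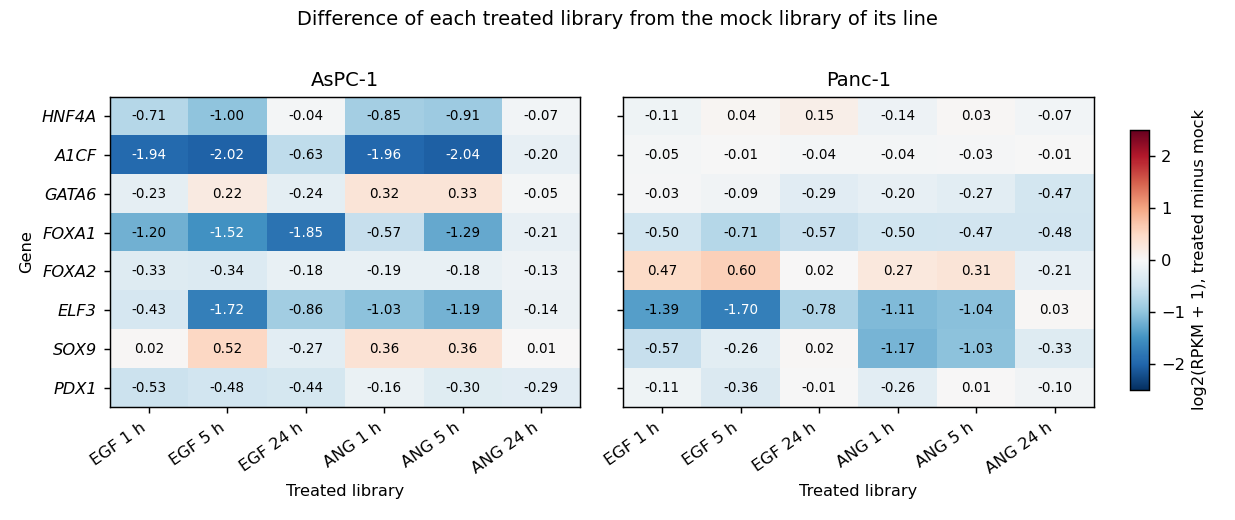
Difference of each treated library from the mock library of its line, in log2(RPKM + 1), for the 8 members in AsPC-1 (left) and Panc-1 (right); blue is below mock and red above, and each cell is 1 library against 1 mock library. A1CF in AsPC-1 lies between -2.04 and -1.94 at 1 h and 5 h, and ELF3 is negative at 1 h and 5 h in both lines.

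EGF and ANG were compared within 6 pairs of the same line and time. None of the 8 members passed, and 0.156% of all genes were called, 0.142% higher and 0.0149% lower (limma, 2146 genes at an unadjusted p under 0.05). The largest differences of the members were those of FOXA1 (-0.47 ± 0.20, SE) and ELF3 (-0.40 ± 0.17), lower with EGF (limma adjusted p = 0.301 each). Without AsPC-1 EGF at 24 h or AsPC-1 ANG at 24 h the FOXA1 difference was -0.24, and without AsPC-1 EGF at 1 h or AsPC-1 ANG at 1 h that of ELF3 was -0.60. In single pairs ELF3 was higher with EGF in AsPC-1 at 1 h (81.7 RPKM with EGF and 53.6 RPKM with ANG), and FOXA1 in Panc-1 at 1 h was at 0.490 RPKM with both. FOXA1 was at 2.01 RPKM after 24 h of EGF in AsPC-1, against 8.42 RPKM after 24 h of ANG and 9.86 RPKM in mock. It was the member at least 2-fold lower with EGF than with ANG in that pair, beside 2.36% of all genes, and at 24 h in Panc-1 it stood at 0.420 RPKM with EGF and 0.510 RPKM with ANG. ELF3 at 24 h was at 60.1 RPKM with EGF and 99.9 RPKM with ANG in AsPC-1, and at 14.9 RPKM with EGF and 26.7 RPKM with ANG in Panc-1 (-0.76 ± 0.26 over the lines; limma, unadjusted p = 0.0167, adjusted p = 1). At single times 0 members and 0.0223% of all genes, all higher with EGF, were called at 1 h, and 0 genes at 5 h and 24 h (limma, 233 and 549 at an unadjusted p under 0.05).

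In Panc-1 SOX9 was at 24.0, 29.9 and 36.6 RPKM at 1, 5 and 24 h of EGF and at 15.5, 17.2 and 28.5 RPKM at 1, 5 and 24 h of ANG. The EGF library was the higher one in each of these pairs, but the difference within Panc-1 alone did not pass (0.57 ± 0.09, SE; limma adjusted p = 0.277, with 0 genes called and 1533 at an unadjusted p under 0.05). The dependence of the ligand difference on the line did not pass for SOX9 (-0.72 ± 0.17, SE; limma adjusted p = 0.516), GATA6 (-0.46 ± 0.15, adjusted p = 0.620) or FOXA2 (-0.35 ± 0.12, adjusted p = 0.620). By this test 0.0% of all genes were called, with 1040 at an unadjusted p under 0.05. In Panc-1 FOXA2 was at 15.1, 16.6 and 10.7 RPKM along EGF and at 12.98, 13.4 and 9.06 RPKM along ANG, which did not pass within Panc-1 either (0.24 ± 0.06, SE; limma adjusted p = 0.366).

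Genes with a course most like that of a member were sought by Pearson's r of log2(RPKM + 1) over the 14 libraries after each line's mean was subtracted, among 9830 genes. For A1CF they were SYTL5 (r = 0.996), SATB1 (0.996) and ALPK1 (0.989). For HNF4A they were ETV5 (0.985), SLC35C2 (0.979) and ABCB8 (0.978), and for ELF3 NECAB3 (0.963), CD99L2 (0.957) and NCKIPSD (0.957). SATB1, a chromatin organiser, was at 2.91 to 12.5 RPKM in AsPC-1 and 0.050 to 0.10 RPKM in Panc-1, the same division between the lines as A1CF. ETV5, an ETS factor known as a target of ERK signalling, was at 1.60 to 30.4 RPKM in AsPC-1 and 35.4 to 58.8 RPKM in Panc-1. It thus shared the course of HNF4A in AsPC-1 and not its division between the lines. HNF4A and A1CF were at most 0.610 and 0.070 RPKM in Panc-1, and FOXA2 at most 0.370 RPKM in AsPC-1. Their r values therefore rest mostly on the other line and show no shared course in the line where they were low. For FOXA1 the nearest was ISCA2 (0.947), for FOXA2 SOCS6 (0.947), for SOX9 PMEPA1 (0.922), for GATA6 TMEM182 (0.869) and for PDX1 ZNF564 (0.852). In AsPC-1, HNF4A and A1CF had a split between the 1 h and 5 h libraries and the others, which many genes follow. FOXA1 and PDX1 had no such split in either line. The highest of so many values is high by choice.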

How the data were processed

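Per the file headers, each deposited table lists symbol, position, strand and log2 RPKM as the authors computed it, and the submitters' processing notes name hg19. The aligner, counting tool and strand setting are not given. Values were turned back to RPKM, with the lowest log2 value, -8.966, read as 0 (no member value was at it). Depth was estimated as the read number at which values of genes of at most 150 bp became whole multiples of a read, within 0.1, for 98.0 to 100% of values. RPKM is not a count.

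The limma package (3.58.1, R 4.3.3, variance trend) was run on log2(RPKM + 1) for 13427 genes that reached 1 RPKM in 2 or more libraries, with Benjamini-Hochberg adjustment over all and a threshold of 0.05. All 8 members passed the filter, HNF4A and A1CF through AsPC-1 libraries alone and FOXA2 through Panc-1 libraries alone. The pseudocount of 1 understates changes of low genes. Contrasts with mock, and between ligands at 1 time, came from an additive model of line and condition over 14 libraries. The line difference had condition as block, EGF against ANG had 6 pairs of line and time, and 24 h against 1 h and 5 h had 4 courses of line and ligand. The text names all members, up to 5 called genes each way per list for the lines and up to 4 otherwise, and up to 3 most alike genes per member. NCRNA00261 and MIPOL1 were named after their values were seen. A gene that the rule named is not reported here. The procedure was tested on simulated data. Members, lists and tests were chosen with earlier results of these data known. Alternatives were a pseudocount of 0.1, no filter, median-centred libraries, no variance trend, no block, and leaving out libraries.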

Additional observations from a re-analysis of the deposited data

Results flagged for a closer look

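The change between 24 h and the mean of 1 h and 5 h differed between the lines by a test of the difference itself for 4 members (limma, interaction, over 4 courses of line and ligand). As AsPC-1 minus Panc-1 on log2(RPKM + 1), it was 1.56 for A1CF, 0.729 for HNF4A, 0.613 for FOXA2 and -1.05 for SOX9. In AsPC-1 the mean at 24 h was 3.88 times that at 1 h and 5 h for A1CF and 1.78 times for HNF4A, and in Panc-1 both genes were under 1 RPKM, where log2(RPKM + 1) can hardly move. SOX9 at 24 h was 0.713 times its mean at 1 h and 5 h in AsPC-1 and 1.503 times in Panc-1. FOXA2 was 1.59 times as high in AsPC-1, where it was at 0.370 RPKM or less, and 0.682 times in Panc-1. For A1CF, HNF4A and FOXA2 the test thus restates the change in the line with the higher level. The share of all genes called in this test, 45.4%, is close to 4 of 8.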

How the results depend on the processing

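The line difference (5 members called higher and 2 lower in AsPC-1) and the interaction of time and line (3 and 1) kept these counts without any 1 library. No member was called lower at 5 h of EGF with median-centred libraries (0) or without any 1 of the 4 libraries compared (0 to 0). For 24 h against 1 h and 5 h, where 1 member was called higher and 0 lower, 0 were called higher without the filter, 1 was called lower with a pseudocount of 0.1 (GATA6, -0.41, limma adjusted p = 0.0374), and 0 were called higher and 1 lower with centred libraries. Leaving out a library gave 0 to 2 members higher and 0 to 1 lower. In AsPC-1 alone 2 were called higher, and in Panc-1 alone 2 were called higher and 2 lower, fits chosen after seeing the data. The cause of these moves was not tested beyond the smaller number of samples in the last ones. The labels hold no replicate numbers; without the block of condition in the line comparison 5 members were again called higher and 2 lower, and without the pair block 0 were called for EGF against ANG. No setting turned the direction of a called member. In Panc-1, A1CF was at 0.030 to 0.070 RPKM, close to the value of a single read in 2 kb. The length of its own transcript was not used, so the number of reads behind it is not known. A change of A1CF in Panc-1 may therefore not be detectable at this depth.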
